A study of Mus musculus with 11 samples.

Results

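Untreated podocytes of MyD88pko mice were set against untreated podocytes of PodTOM mice, to describe the transcriptome of the healthy cell and to ask which transcripts differ when the adaptor MyD88 is deleted in the absence of disease. The libraries were chosen by their labels, as all those with the disease state healthy, and number 5 of the 11 libraries of the series. The 2 MyD88pko libraries (BKV_729 and BKV_733) came from mice on a C57BL/6 background (C57BL/6N in the study's methods) that carried the podocyte-specific PodCre allele, which expresses Cre and the fluorophore mTomato, and were homozygous for a floxed Myd88 gene. The 3 PodTOM libraries (AOL_1081, AOL_1082 and AOL_1086, labelled WT) came from mice of the same background that carried the same Cre and mTomato allele with wild-type Myd88. Cre and the fluorophore were thus expressed in the podocytes of both groups, none of the mice had been given nephrotoxic serum, and living mTomato-positive cells were sorted from glomeruli isolated with magnetic beads. The protocol gives an age span of 8 to 52 weeks for the mice in general and of 8 to 16 weeks, males only, for those in which nephritis was induced, and gives no age for a single library. The age and sex of each mouse, the number of mice in a library and the part of Myd88 between the loxP sites are not given in the sources used here, so the p-values rest on library-to-library spread, which may be partly technical. All MyD88pko titles start with BKV and all PodTOM titles with AOL, so anything that goes with the title prefix cannot be told apart from the genotype.

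Podocytes are terminally differentiated epithelial cells that wrap the glomerular capillaries with interdigitating foot processes. Neighbouring foot processes are joined by the slit diaphragm, a cell junction built around nephrin that retains plasma proteins. MyD88 is the cytoplasmic adaptor that most Toll-like receptors and the receptors of the interleukin 1 family use to recruit IRAK kinases and TRAF6, which leads to the activation of NF-κB, whereas TLR3 signals through the adaptor TRIF and TLR4 can use both adaptors.

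The estimated counts summed to 14563271 to 19483013 per untreated library, and 18420 to 19996 genes had a count above 0. Mitochondrially encoded transcripts held 4.96% to 6.25% of the counts. Of the 5 untreated libraries, AOL_1081 was the shallowest and stood apart on the first principal component of the 500 most variable genes (39.25% of the variance), at -52.43 against 3.31 to 24.37 for the others. BKV_733 stood apart on the second (26.72%), at -42.96 against 4.2 to 22. The genotypes were not separated on either component. The correlation of log2 CPM between the MyD88pko libraries was 0.9651, between PodTOM libraries 0.9504 to 0.9687, and between libraries of different genotype 0.9528 to 0.9688, as a description over genes that are not independent of each other.

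Promoter sequences are shown for Myd88, Pttg1 and Cldn1, which are among the 4 genes that were lower in MyD88pko podocytes in the results that follow, so that the regions in front of them can be compared. Each is the stretch of 250 bases upstream of the RefSeq start on GRCm38.p6, on the gene's own strand, with motif matches in capitals.
Myd88, chr9:119340019-119340268, minus strand: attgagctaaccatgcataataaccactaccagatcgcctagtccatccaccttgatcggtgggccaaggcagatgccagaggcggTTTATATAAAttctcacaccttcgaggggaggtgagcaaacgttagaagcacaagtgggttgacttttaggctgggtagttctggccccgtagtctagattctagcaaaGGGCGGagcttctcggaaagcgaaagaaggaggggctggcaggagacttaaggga
Pttg1, chr11:43425982-43426231, minus strand: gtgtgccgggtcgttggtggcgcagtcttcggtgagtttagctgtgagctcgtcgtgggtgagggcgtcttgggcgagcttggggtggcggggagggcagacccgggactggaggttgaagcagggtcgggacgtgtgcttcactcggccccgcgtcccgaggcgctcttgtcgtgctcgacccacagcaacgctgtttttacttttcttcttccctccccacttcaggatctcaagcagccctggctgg
Cldn1, chr16:26371840-26372089, minus strand: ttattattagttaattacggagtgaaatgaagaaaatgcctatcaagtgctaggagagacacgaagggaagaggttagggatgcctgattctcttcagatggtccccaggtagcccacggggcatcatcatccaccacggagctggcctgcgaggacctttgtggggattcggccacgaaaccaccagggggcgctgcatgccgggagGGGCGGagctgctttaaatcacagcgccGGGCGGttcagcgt
The motifs searched on both strands were the TATA box (TATAAA), the CCAAT box (CCAAT), the Sp1 GC box (GGGCGG), the E box (CACGTG) and an NF-κB site (GGG and TTTCC with any 2 bases between them). The Cldn1 window held 2 matches to the GC box, which start 42 and 14 bases upstream of the annotated start. The Myd88 window held 1 match to the GC box, 55 bases upstream, and 2 overlapping matches to the TATA box, 164 and 160 bases upstream. The Pttg1 window held no match to any of the 5 motifs. Of all 32851 RefSeq windows of this length, 32.7% held the GC box, 12.4% the TATA box, 33.8% the CCAAT box, 6.0% the E box and 1.4% the NF-κB site. A match is a description of the letters only. The RefSeq starts of Myd88, Pttg1 and Gm15446 lie inside the genes as GENCODE draws them, so these windows need not be the only promoters, and the window of Gm15446 is not shown.

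The healthy podocyte transcriptome was described by the share that its most abundant genes held. In TPM, which corrects for transcript length as well as for the size of the library, 13610 genes reached 1 TPM in all 5 libraries and 1186 reached 100 TPM. The 10 most abundant nuclear genes of a library held 13.9% and 13.2% of its TPM in MyD88pko and 12.3%, 12.3% and 11.5% in PodTOM libraries. The 100 most abundant held 25.8% and 25.4% in MyD88pko, against 25%, 24.4% and 23.5% in PodTOM libraries. Gm20594 and Lars2 together held 9.15% and 7.56% of the TPM in MyD88pko, against 5.44%, 7.38% and 6.90% in PodTOM libraries. Mitochondrially encoded genes held 12.1% and 13.5% in MyD88pko, against 16.4%, 13.1% and 13.7% in PodTOM libraries.

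Among the 30 nuclear genes with the highest mean TPM, genes known from the podocyte were present. Podxl, which encodes podocalyxin, the sialomucin that coats the apical surface of foot processes, had 7826 and 8131 TPM in MyD88pko libraries, against 8626, 7854 and 7783 TPM in PodTOM libraries. The groups overlapped, and the spread within a genotype was small beside the level. Magi2, a scaffold that binds nephrin, averaged 1783 ± 145 TPM in MyD88pko (SD, n = 2) and 1566 ± 83.0 TPM in PodTOM libraries (SD, n = 3).

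Secreted and matrix-related products formed a further part of this set. Vegfa, the growth factor that podocytes supply to glomerular endothelial cells, averaged 3076 ± 295 TPM in MyD88pko and 2749 ± 636 TPM in PodTOM libraries. Igfbp7, a secreted insulin-like growth factor binding protein, averaged 3767 ± 774 TPM in MyD88pko and 3960 ± 2133 TPM in PodTOM libraries, where AOL_1081 alone had 6422 TPM. Sparc, a matricellular protein, averaged 2052 ± 62.3 TPM in MyD88pko and 2233 ± 115 TPM in PodTOM libraries. Timp3, an inhibitor of metalloproteinases, averaged 1902 ± 191 TPM in MyD88pko and 1978 ± 34.6 TPM in PodTOM libraries. The cell surface was represented by Dpp4, a dipeptidyl peptidase, Cd81, a tetraspanin, Sdc4, a heparan sulfate proteoglycan of focal adhesions, Itm2b and Tm4sf1, with means over all 5 libraries between 1635 and 1873 TPM.

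The cytoskeletal genes Actb and Actg1, which encode the cytoplasmic actins, and Vim, which encodes the intermediate filament protein vimentin, had means of 2338, 1898 and 1977 TPM. Actb had 2067 and 1938 TPM in MyD88pko, against 1818, 3212 and 2657 TPM in PodTOM libraries, so that the PodTOM libraries spanned the MyD88pko values. The immediate early genes Egr1 and Fos were also in the set. In the study's methods, kidneys and glomeruli were digested with enzymes before the cells were sorted. Whether this handling had a part in the levels of Egr1 and Fos was not tested. Egr1 averaged 2930 ± 132 TPM in MyD88pko and 2928 ± 141 TPM in PodTOM libraries, and Fos averaged 2230 ± 132 TPM in MyD88pko and 2442 ± 196 TPM in PodTOM libraries. Zfp36l1, Mmachc, S100a11, Eif4a2 and Eloc had means between 2504 and 3557 TPM. Of these, Eif4a2, an RNA helicase of translation initiation, had 2252 and 1748 TPM in MyD88pko, against 2803, 3291 and 3349 TPM in PodTOM libraries without overlap (log2 fold change -0.48, adjusted p = 0.839).

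Several of the 30 genes have transcripts that cannot be assigned with certainty. For 9 of the 30, at least 30% of the stretches of 31 bases in the most abundant transcript also occur in transcripts of other genes in the same tables, and for 17 this share was under 1%. Gm28661, with a mean of 10688 TPM, shares 100% of these stretches with the mitochondrial gene mt-Co2. Gm20594 had the highest mean, 43716 TPM, and 10% of its stretches occur in the mitochondrial ribosomal RNA gene mt-Rnr2, which is outside the tables. Gm17571 and Gm21961 have annotated transcripts of 90 and 114 bases, and their means of 7547 and 1920 TPM correspond to only 119 and 45.1 CPM. Of the 30 genes, 9 had a most abundant transcript that is annotated as a pseudogene, retained intron or processed transcript, among them Lars2, Dpp4, Magi2, Eif4a2, Eloc and Tm4sf1.

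Ordered by CPM, which is not scaled by length, the list changed to 11 shared genes of 30. Lars2, Podxl, Gm20594 and Thsd7a were then among the first 5, and it took in Col4a3, Synpo, Tjp1, Clic5 and Nes. The 30 genes with the highest mean over the MyD88pko libraries alone shared 29 with the full list, and those over the PodTOM libraries alone shared 27.

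**Figure D1:**
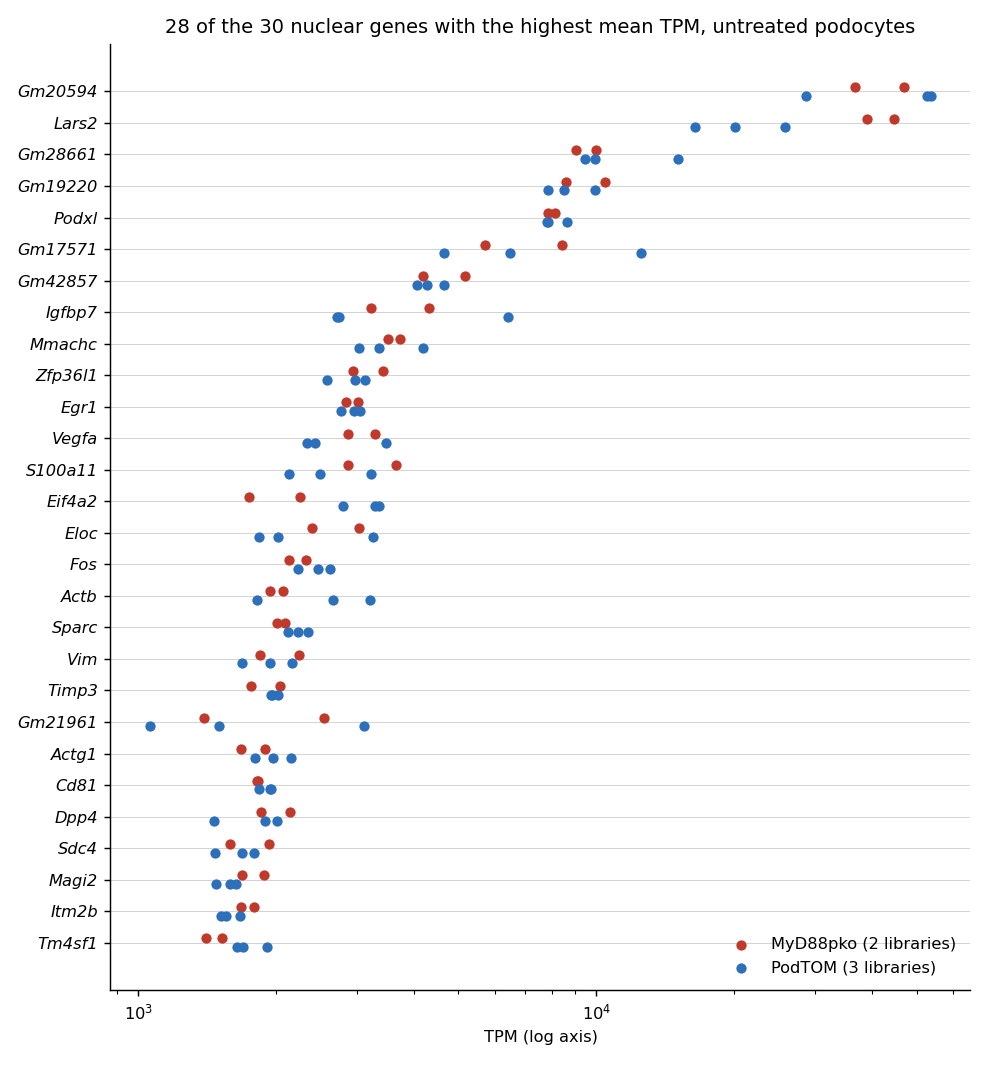
TPM (log axis) of 28 of the 30 nuclear genes with the highest mean over the 5 untreated libraries, 1 point per library, MyD88pko (2 libraries) in red above PodTOM (3 libraries) in blue. The MyD88pko points of Lars2, at 44640 and 39000 TPM, lie to the right of its PodTOM points, the highest of which is at 25805 TPM, and the points of Podxl and Egr1 are interleaved.

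The labelled cell type was checked against its markers. All 15 podocyte markers had means of at least 80.1 TPM, the lowest being Lmx1b, and beside Podxl and Magi2 they included Wt1 with a mean of 1545 TPM, Thsd7a with 1470 TPM, Synpo with 1423 TPM and Nphs1 with 1399 TPM. Markers of most other kidney cells were lower. The 17 endothelial markers summed to 184 and 165 TPM in MyD88pko, against 142, 180 and 183 TPM in PodTOM libraries. The 15 mesangial and smooth muscle markers summed to 146 and 143 TPM in MyD88pko, against 191, 140 and 144 TPM in PodTOM libraries. The 15 proximal tubule markers summed to 120 and 102 TPM in MyD88pko, against 64, 94.4 and 219 TPM in PodTOM libraries, with AOL_1086 highest. The 21 leukocyte markers summed to 181 and 104 TPM in MyD88pko, against 123, 177 and 201 TPM in PodTOM libraries, and Cd68, a lysosomal protein that is not restricted to leukocytes, made up most of this sum with a mean of 108 TPM. C1qa, S100a8 and S100a9 were at 0 in all 5 libraries, and Ptprc, the pan-leukocyte gene, had a mean of 3.27 TPM. The 13 distal nephron markers summed to 543 and 506 TPM in MyD88pko, against 558, 479 and 593 TPM in PodTOM libraries, of which Wnk1, a kinase gene with many sites of expression, made up a mean of 496 TPM, while Umod, the defining gene of the thick ascending limb, had 4.92 and 0.831 TPM in MyD88pko, against 1.02, 2.31 and 34.3 TPM in PodTOM libraries. For each of these 5 lists the sums of the genotypes overlapped in TPM. In CPM, the mesangial and smooth muscle markers summed to 164 and 167 in MyD88pko, against 258, 170 and 195 in PodTOM libraries, without overlap, and 5 of the 15 (Rgs5, Pdgfrb, Myh11, Cspg4 and Notch3) were below all PodTOM libraries in both MyD88pko libraries, beside 8.5% of all genes. None of them was called, and Rgs5, a pericyte gene, had the smallest p (log2 fold change -1.49, edgeR, unadjusted p = 0.0067, adjusted p = 0.667). The part of these cells in the results that follow was not tested.

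Myd88 itself was examined first as the check of the genotype labels. The gene lies on chromosome 9 from 119335934 to 119341411 (GRCm38, GENCODE M21). Its counts were 15 and 3 in the MyD88pko libraries, against 84, 150 and 115 in the PodTOM libraries. In CPM, which is the count scaled to the TMM-corrected size of the library, this was 0.976 and 0.20 in MyD88pko, against 6.49, 7.95 and 7.23 in PodTOM podocytes. The groups did not overlap, and the MyD88pko mean was 8.1% of the PodTOM mean. The log2 fold change was -3.60 (SE 0.543, 95% interval -4.75 to -2.45, edgeR's quasi-likelihood test, adjusted p = 0.0238), which is 12.1-fold lower in MyD88pko with an interval of 5.5 to 26.9. Most counts lay on Myd88-201, a coding transcript, with 13.8 and 3.0 estimated counts in MyD88pko, against 84.0, 133 and 91.2 in PodTOM libraries. The retained-intron transcript Myd88-203 had 0 counts in both MyD88pko libraries and in AOL_1081, against 16.6 and 23.8 in AOL_1082 and AOL_1086. The difference passed under 5 of 12 other ways of processing. It did not pass without BKV_733 (log2 fold change -2.88, adjusted p = 0.277), without AOL_1082 (-3.53, adjusted p = 0.105), without AOL_1086 (-3.60, adjusted p = 0.0864) or with the 5 untreated libraries fitted alone (-3.60, adjusted p = 0.478).

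Myd88 was a low-abundance transcript in PodTOM podocytes as well, with 6.05, 8.12 and 7.45 TPM, against 1.52 and 0.201 TPM in MyD88pko. Myd88 lies within Slc22a14 on the same strand, over 5478 bases, and Slc22a14 had 0.26 and 0 CPM in MyD88pko, against 0 CPM in all 3 PodTOM libraries. Myd88 also overlaps the antisense gene Acaa1a over 1736 bases, and the counting is not stated to use strand. Of the stretches of 31 bases in Myd88-201, 10.1% occur in Acaa1a transcripts. Acaa1a, a peroxisomal thiolase gene, had 24.7 and 28.1 CPM in MyD88pko, against 18.2, 21.8 and 23.1 CPM in PodTOM libraries, a log2 fold change of 0.33 with a 95% interval of -0.19 to 0.85.

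Across the transcriptome, 21200 genes were tested and 4 were called lower in MyD88pko podocytes at an adjusted p under 0.05, which is 0.0189% of genes tested. No gene was called higher (0%) by edgeR's quasi-likelihood test. At an unadjusted p under 0.05, 543 genes were higher and 644 lower, 5.60% of those tested. DESeq2 called 12 genes higher and 21 lower, and all 4 genes were among the 21. The median log2 fold change over all genes was 0.00 with quartiles of -0.24 and 0.22. Both MyD88pko libraries lay above all PodTOM libraries for 9.48% of genes and below all of them for 8.5%.

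The precision of the comparison depended on the level. Among 1968 genes that averaged 100 CPM or more, the median absolute log2 fold change was 0.10 and the median half-width of the 95% interval 0.38, and for 97.8% of them the whole interval lay between -1 and 1. For the 7040 genes between 10 and 100 CPM the median half-width was 0.51, and 84.8% had an interval within these bounds. For the 6236 genes between 1 and 10 CPM it was 1.05, and for the 5956 genes under 1 CPM it was 3.20. At these low levels the comparison bounds a difference only loosely.

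**Figure D2:**
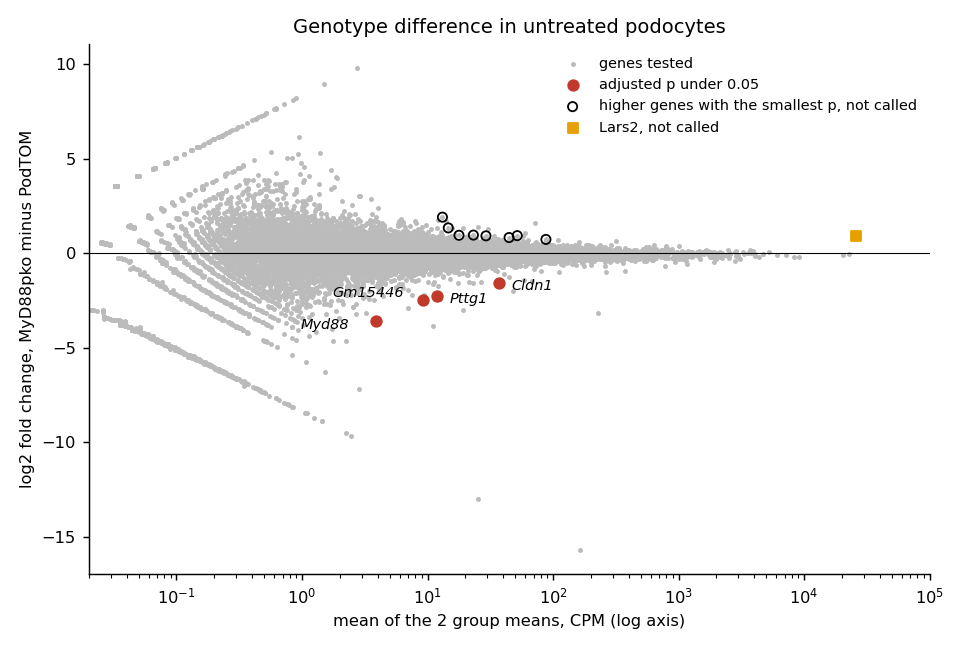
Log2 fold change of MyD88pko minus PodTOM against the mean level in CPM (log axis), 1 grey point per tested gene, with the 4 called genes in red, the higher genes with the smallest p as open circles and Lars2 as a square. The 4 called genes, Myd88, Gm15446, Pttg1 and Cldn1, lie between 3.90 and 37.0 CPM with log2 fold changes of -3.60 to -1.55, and the cloud narrows around 0 at higher levels.

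Pttg1 had the smallest p. It encodes securin, which holds separase inactive until anaphase and has also been described as a transcriptional regulator. The gene lies on chromosome 11 from 43420250 to 43426251. Pttg1 had 4.68 and 3.61 CPM in MyD88pko, against 21.8, 20.8 and 17.0 CPM in PodTOM podocytes. Both MyD88pko libraries were far below every PodTOM library. The log2 fold change was -2.26 (SE 0.257, adjusted p = 0.00234), 4.8-fold lower with an interval of 3.3 to 7.0. Pttg1-204 carried most of the counts in both groups, and the coding transcript Pttg1-202 had 0 counts in both MyD88pko libraries, against 19.4, 61.7 and 42.5 in PodTOM libraries. The call was lost without BKV_733 (log2 fold change -2.08, adjusted p = 0.212) and with the 5 untreated libraries fitted alone (-2.27, adjusted p = 0.217). Of the other 23 cell cycle genes on the list none was called, and the DNA polymerase clamp gene Pcna, the highest of them, had 88.6 and 81.0 TPM in MyD88pko, against 83.3, 86.1 and 88.9 TPM in PodTOM libraries.

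Gm15446, a predicted gene annotated as protein coding on chromosome 5 from 109923400 to 109943936, had 2.60 and 2.94 CPM in MyD88pko, against 15.2, 11.9 and 19.2 CPM in PodTOM podocytes. The groups did not overlap. The log2 fold change was -2.48 (SE 0.342, adjusted p = 0.0154), 5.6-fold lower with an interval of 3.4 to 9.2. The difference lay mainly on Gm15446-201, with 18.6 and 12.8 counts in MyD88pko, against 169, 147 and 228 in PodTOM libraries, whereas the retained-intron transcript Gm15446-202 had 21 and 31.5 counts in MyD88pko, against 27.8, 77.6 and 78.2 in PodTOM libraries. The call was lost without BKV_729 (adjusted p = 0.142), BKV_733 (adjusted p = 0.214) or AOL_1086 (adjusted p = 0.0864), at log2 fold changes of -2.39, -2.57 and -2.29. Of the stretches of 31 bases in Gm15446-201, 62.7% occur in other genes of the tables and 58.7% in Zfp932, a zinc finger gene, so the assignment of its reads is uncertain. Zfp932 had 12.2 and 12.6 CPM in MyD88pko, against 6.49, 16.4 and 12.9 CPM in PodTOM libraries, with a log2 fold change of 0.05 (95% interval -0.68 to 0.78).

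Cldn1 encodes the tight junction protein claudin 1, which in the glomerulus is known from parietal epithelial cells. It lies on chromosome 16 from 26356642 to 26371841. Cldn1 had 18.6 and 19.2 CPM in MyD88pko, against 52.7, 51.5 and 61.3 CPM in PodTOM podocytes. The libraries of each genotype were close together, and the groups did not overlap. The log2 fold change was -1.55 (SE 0.222, adjusted p = 0.0172), 2.9-fold lower with an interval of 2.1 to 4.0. The call was lost without BKV_729 (adjusted p = 0.142), BKV_733 (adjusted p = 0.274), AOL_1082 (adjusted p = 0.0512) or AOL_1086 (adjusted p = 0.0864), at log2 fold changes between -1.60 and -1.46. In sorted bulk RNA, fewer cells that express a gene and less RNA per cell cannot be told apart. The most abundant transcript was Cldn1-201, and none of its stretches of 31 bases occurs in another gene of the tables. None of the other parietal epithelial markers was called. Ncam1 had 57.6 and 79.5 TPM in MyD88pko, against 97.3, 58.9 and 57.6 TPM in PodTOM libraries, and Pax8 had 24.7 and 36.6 TPM in MyD88pko, against 44.9, 29.5 and 35.0 TPM in PodTOM libraries. Scin, Cd44, Pax2, Cdh6, Krt19, Krt18 and Krt8 had means under 5 TPM, and Cldn3 was at 0 in all 5 libraries. The sum of all 11 parietal markers was 105 and 135 TPM in MyD88pko, against 177, 128 and 146 TPM in PodTOM libraries, and its ranges overlapped. Whether other cells had a part in the Cldn1 difference was not tested.

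The 6 libraries of nephritic mice, which share no sample with the untreated comparison, gave the same contrast in separate libraries, sorted 5 days after the induction of nephrotoxic nephritis (NTN). There 13 genes were lower in MyD88pko (0.0613% of those tested) and 0 higher by edgeR. Myd88 had 0.485, 0.474 and 0.464 CPM in nephritic MyD88pko, against 10.5, 7.97 and 14.1 CPM in nephritic PodTOM podocytes (log2 fold change -4.50, adjusted p = 0.000244). Pttg1 had 21.3, 22.2 and 18.8 CPM in nephritic MyD88pko, against 69.1, 84.5 and 114 CPM in nephritic PodTOM podocytes (-2.10, adjusted p = 0.000226). Gm15446 had 3.03, 3.06 and 2.42 CPM in nephritic MyD88pko, against 11.3, 14.6 and 11.6 CPM in nephritic PodTOM podocytes (-2.14, adjusted p = 0.00452). For these 3 genes the libraries of the genotypes did not overlap in either condition. These p-values share the estimate of spread over all 11 libraries, and with the 6 nephritic libraries fitted alone the adjusted p was 0.00432 for Myd88, 0.012 for Pttg1 and 0.053 for Gm15446, which was then no longer called. Cldn1 had 52.1, 59.5 and 90.1 CPM in nephritic MyD88pko, against 67.7, 74.2 and 75.5 CPM in nephritic PodTOM podocytes (-0.11, adjusted p = 1), and the libraries overlapped. The difference between the 2 genotype differences of Cldn1 was -1.44 (SE 0.285) and did not pass the test (adjusted p = 0.348), so the genotype difference is not shown to depend on the condition. The nephritic contrast shares the title prefixes with the untreated one.

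**Figure D3:**
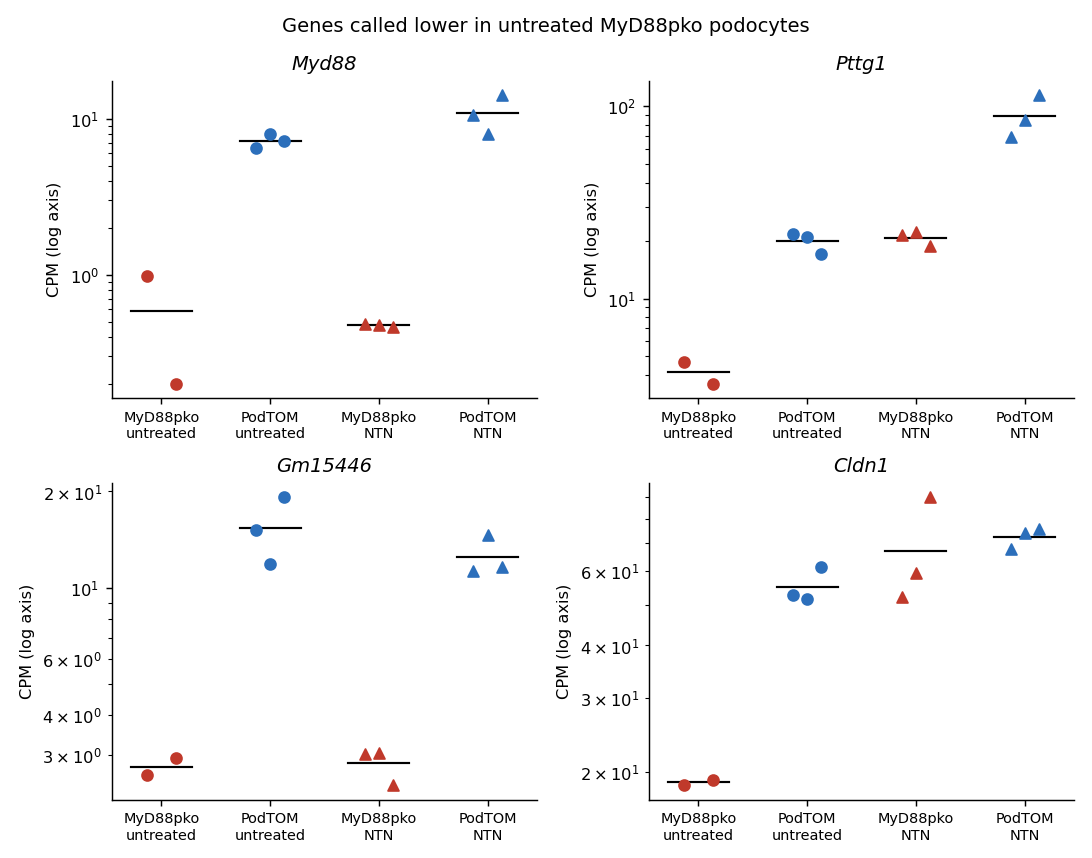
CPM (log axis, scaled for each gene) of the 4 genes called lower in untreated MyD88pko podocytes, 1 point per library, circles for untreated and triangles for NTN libraries, with a bar at the group mean. Myd88, Pttg1 and Gm15446 are separated by genotype in both conditions, while the Cldn1 values of the NTN libraries overlap between genotypes (52.1 to 90.1 CPM in MyD88pko and 67.7 to 75.5 CPM in PodTOM).

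No gene passed the test in the higher direction, and the 8 genes with the smallest p, a mean of at least 10 CPM and no overlap between groups are given as values. Zdhhc24, a palmitoyltransferase gene, had 18.9 and 23.2 CPM in MyD88pko, against 10.7, 6.78 and 7.35 CPM in PodTOM libraries (log2 fold change 1.35, SE 0.225, adjusted p = 0.0503), just outside the threshold, and most of its counts lay on the processed transcript Zdhhc24-203. Rnf31, the catalytic subunit of the linear ubiquitin chain assembly complex that acts in NF-κB activation, had 53.1 and 61.6 CPM in MyD88pko, against 36.8, 28.9 and 30.2 CPM in PodTOM libraries (0.84, adjusted p = 0.272). E2f1, a transcription factor of the G1 to S transition, had 52.7 and 83.7 CPM in MyD88pko, against 33.0, 36.4 and 37.0 CPM in PodTOM libraries (0.94, adjusted p = 0.47). Clta, a clathrin light chain gene, had 22 and 25.1 CPM in MyD88pko, against 14.1, 12.2 and 10.1 CPM in PodTOM libraries (0.96, adjusted p = 0.416). Pisd, Nbea and Necab3 had log2 fold changes of 0.97, 0.74 and 0.93 with adjusted p of 0.383, 0.47 and 0.499. Gm5176, at 7.28 and 34.3 CPM in MyD88pko, against 5.33, 6.25 and 4.90 CPM in PodTOM libraries, was carried by BKV_733.

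The genes within 10 Mb of Myd88 on either side were examined as the neighbours of the targeted locus. Of 162 such genes tested, 0 were called by edgeR in either direction apart from Myd88 itself, and 8 had an unadjusted p under 0.05, 5 higher and 3 lower, beside 5.60% of all genes. Both MyD88pko libraries lay above all PodTOM libraries for 17 of the 162, beside 9.48% of all genes, and below them for 13, beside 8.5%, which is near the background in each case. The gene with the smallest p was Lars2, the mitochondrial leucyl-tRNA synthetase gene, which starts 4.03 Mb from Myd88 on chromosome 9. Lars2 had 44640 and 39000 TPM in MyD88pko, against 25805, 20055 and 16397 TPM in PodTOM libraries. The groups did not overlap, but the log2 fold change of 0.92 (SE 0.241, 95% interval 0.42 to 1.43) had an adjusted p of 0.522. The most abundant Lars2 transcript was Lars2-205, a retained-intron transcript of 889 bases, which shares no stretch of 31 bases with another gene of the tables.

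The receptors that use MyD88 were measured at low to moderate levels in healthy podocytes. Of 22 genes for Toll-like and interleukin 1 family receptors and their cofactors, 14 reached a mean of 1 TPM and 7 reached 10 TPM, 20 were tested and 0 were called by edgeR. At an unadjusted p under 0.05, 0 were higher and 2 lower, beside 5.60% of all genes in both directions. Tlr7, an endosomal receptor for single-stranded RNA, was the highest and had 138 and 135 TPM in MyD88pko, against 148, 132 and 135 TPM in PodTOM libraries (log2 fold change -0.02, 95% interval -0.37 to 0.32). Ly96, which encodes the TLR4 cofactor MD-2, had 47.1 and 32.5 TPM in MyD88pko, against 85.9, 57.6 and 34.5 TPM in PodTOM libraries. Tlr3, the receptor for double-stranded RNA, had 14.3 and 15.1 TPM in MyD88pko, against 8.00, 6.05 and 6.80 TPM in PodTOM libraries, and its counts overlapped between genotypes (log2 fold change 0.46, 95% interval -0.22 to 1.14). Tlr4, the lipopolysaccharide receptor, had 3.93 and 2.14 TPM in MyD88pko, against 3.25, 2.28 and 2.18 TPM in PodTOM libraries. Beside Il18rap and Tlr1, whose transcripts are described further on, the remaining receptors with at least 1 TPM were Il18r1 and Il1rl1, the receptors for interleukins 18 and 33, with means of 10.4 and 8.73 TPM, Il1rap, the accessory chain of the receptors for interleukins 1 and 33, with 6.48 TPM, Tlr6 with 3.94 TPM and Il1r1 with 2.89 TPM, along with Lbp (11.9 TPM), Unc93b1 (4.70 TPM) and Tlr13 (4.92 TPM).

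Tlr2, Tlr5, Tlr8, Tlr9, Tlr12, Il1rl2 and Cd14 had means under 1 TPM, and Tlr11 was at 0 in all 5 libraries. Tlr9, for unmethylated CpG DNA, had 0 and 0.256 TPM in MyD88pko, against 0, 0.331 and 0.626 TPM in PodTOM libraries. Tlr2 was at 0 in both MyD88pko libraries, against 0.0457, 0.105 and 0.642 TPM in PodTOM libraries. Tlr2 and Tlr13 (log2 fold change -1.84, edgeR, adjusted p = 0.856) were the 2 lower receptors with an unadjusted p under 0.05. Tlr13 had 1.04 and 0.534 CPM in MyD88pko, against 3.94, 3.02 and 1.57 CPM in PodTOM libraries. In TPM it overlapped, at 0.497 and 10.9 in MyD88pko, against 10.3, 2.2 and 0.783 in PodTOM libraries. At such levels the comparison bounds a difference only loosely.

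A gene's summed TPM did not always stand for its coding message. Of 56 members of the MyD88, receptor, TRIF and NF-κB lists with at least 1 TPM, 18 had less than 50% of their TPM on transcripts annotated as protein coding. Il18rap, with a mean of 33.3 TPM, had 0.0507 TPM on coding transcripts, and its most abundant transcript was the retained-intron transcript Il18rap-202. Tlr1, with 25.4 TPM, had 0.0379 TPM on coding transcripts, and its most abundant transcript was Tlr1-203, a processed transcript. Among the genes given further on, Irf3 had 36.3 of 242 TPM on coding transcripts, Tbk1 30.2%, Ikbkb 20.6%, Nfkb1 29.7%, Map3k7 22.2%, Ube2n 15.5% and Peli1 35.5%, so that their summed levels are mostly non-coding. The same held for Irak3, Irf7, Tlr13, Ticam2, Ikbke, Tank, Chuk, Relb and Bcl3. Tlr7 by contrast had 92.4% on coding transcripts, foremost Tlr7-201.

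**Figure D4:**
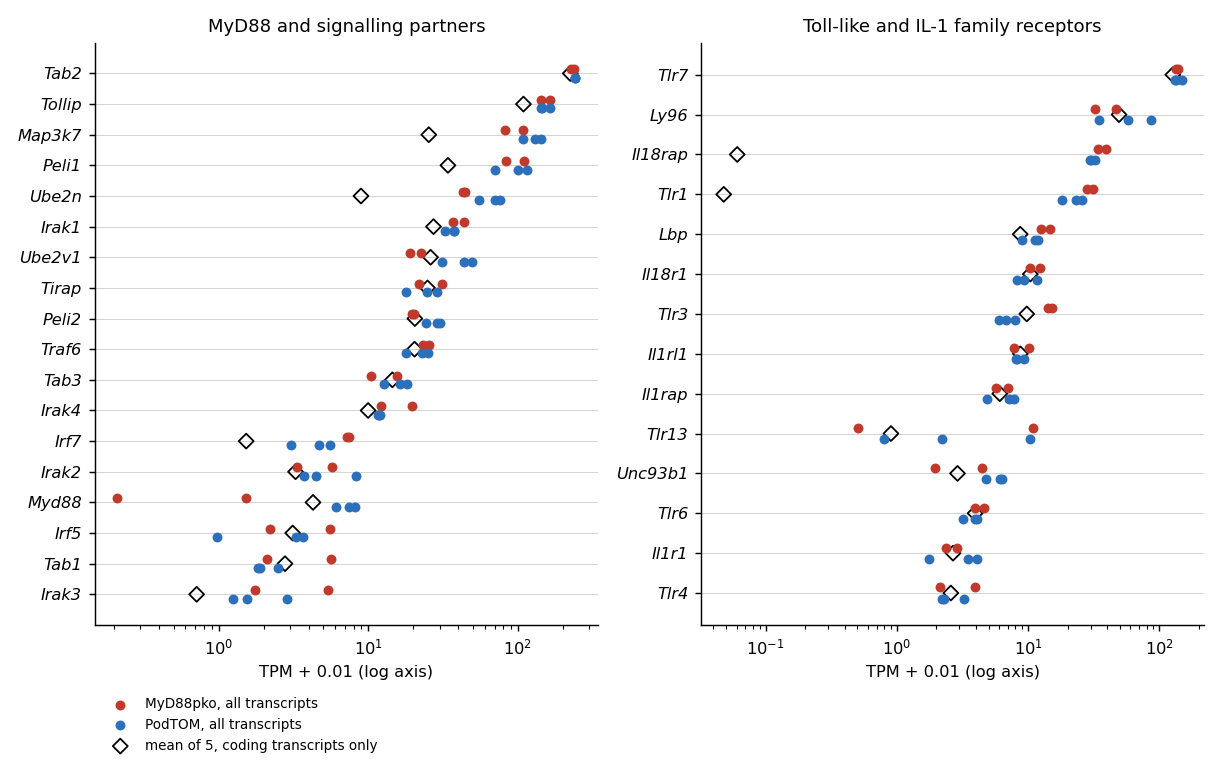
TPM + 0.01 (log axis) of MyD88 with its partners (left) and of Toll-like and interleukin 1 family receptors (right) with a mean of at least 1 TPM, 1 point per untreated library, MyD88pko in red above PodTOM in blue, and diamonds for the mean of the 5 libraries over coding transcripts only. The MyD88pko points of Myd88, at 1.52 and 0.201 TPM, lie left of its PodTOM points, and the diamonds of Il18rap and Tlr1 lie at 0.0507 and 0.0379 TPM, far left of their summed values.

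Downstream of the receptors, 19 genes for MyD88 and its partners were tested and Myd88 alone was called. The median log2 fold change of the list was 0.05, against 0.00 over all genes. Tab2, an adaptor of the kinase TAK1, had the highest level with 238 and 226 TPM in MyD88pko, against 241, 241 and 242 TPM in PodTOM libraries, and an interval of -0.32 to 0.45 for the log2 fold change. Irak1, Irak4 and Traf6, the kinases and the ubiquitin ligase of the core cascade, had means of 37.7, 13.4 and 22.9 TPM and intervals of -0.42 to 0.44, -0.48 to 0.59 and -0.22 to 0.56. Tirap, the adaptor that bridges MyD88 to TLR2 and TLR4, had 22 and 31.3 TPM in MyD88pko, against 17.8, 28.7 and 24.8 TPM in PodTOM libraries. Tollip and Map3k7, which encodes TAK1, had means of 151 and 114 TPM, and Peli1 and Ube2n had 96.1 and 57.5 TPM. Ube2v1, the partner of Ube2n in building K63-linked ubiquitin chains, had 19.1 and 22.7 TPM in MyD88pko, against 31.3, 49.5 and 43.9 TPM in PodTOM libraries without overlap, and the log2 fold change of -0.73 did not pass after adjustment (adjusted p = 0.58). Peli2 (-0.40, adjusted p = 0.864) was the only other partner with an unadjusted p under 0.05. Tab3, Irf7, Irak2, Irf5, Tab1 and Irak3 had means between 2.56 and 14.6 TPM, and Sigirr 0.50 TPM.

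The MyD88-independent arm through TRIF showed 0 calls among 10 genes by edgeR and 0 at an unadjusted p under 0.05, with a median log2 fold change of 0.04. Ticam1, which encodes TRIF, had 20.5 and 28.1 TPM in MyD88pko, against 32.6, 22.2 and 21 TPM in PodTOM libraries (95% interval of the log2 fold change -0.62 to 0.47). Irf3, the transcription factor at its end, had 252 and 278 TPM in MyD88pko, against 252, 185 and 242 TPM in PodTOM libraries (-0.19 to 0.59). Tbk1, the kinase that phosphorylates IRF3, had 131 and 108 TPM in MyD88pko, against 73.8, 126 and 126 TPM in PodTOM libraries (-0.42 to 0.34). The adaptors and kinases Azi2, Ripk1, Tank, Traf3, Ikbke and Ticam2 had means of 103, 99.7, 31.3, 23.4, 13.5 and 9.04 TPM. The 31 interferon-stimulated genes had 0 calls and a median of 0.03. At an unadjusted p under 0.05, 0 were higher and 2 lower, beside 5.60% of all genes in both directions.

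The NF-κB family also had 0 calls by edgeR, with a median log2 fold change of -0.20. At an unadjusted p under 0.05, 0 of 16 genes were higher and 3 lower, beside 644 lower genes of all 21200. Both MyD88pko libraries lay below all PodTOM libraries for 4 of the 16, beside 8.5% of all genes, and above them for 1, beside 9.48%. Tnfaip3, which encodes the inhibitor A20 and is itself an NF-κB target, had 163 and 165 TPM in MyD88pko, against 229, 350 and 272 TPM in PodTOM libraries. The groups did not overlap, and the log2 fold change of -0.93 had an adjusted p of 0.758. Nfkb1, which encodes the p105 and p50 subunit, had 69 and 69.8 TPM in MyD88pko, against 110, 92.9 and 96.6 TPM in PodTOM libraries (-0.42, adjusted p = 0.886). Rel, which encodes c-Rel, had 26.8 and 23.3 TPM in MyD88pko, against 34.3, 38.1 and 32.4 TPM in PodTOM libraries (-0.48, adjusted p = 0.886). Summed over the 16 genes, the level was 949 and 975 TPM in MyD88pko, against 1152, 1199 and 1198 TPM in PodTOM libraries, so that both MyD88pko sums lay below all PodTOM sums. A large part of this gap lay in Tnfaip3 alone, with a mean of 164 TPM in MyD88pko and 283 TPM in PodTOM libraries.

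For the other members with at least 1 TPM the interval of the log2 fold change included 0. Nfkbia, which encodes the inhibitor IκBα, had 202 and 263 TPM in MyD88pko, against 320, 226 and 259 TPM in PodTOM libraries (95% interval of the log2 fold change -1.03 to 0.59). Rela, which encodes p65, had 41.2 and 49.7 TPM in MyD88pko, against 73.8, 54.1 and 53.0 TPM in PodTOM libraries (-0.96 to 0.11). Ikbkb, a catalytic subunit of the IκB kinase, had 155 and 169 TPM in MyD88pko, against 140, 137 and 149 TPM in PodTOM libraries (-0.10 to 0.54). Nfkbie, Chuk, Nfkbiz, Nfkb2, Relb, Bcl3, Tnip1, Nfkbib and Ikbkg had means between 14.1 and 69.5 TPM.

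Most NF-κB targets on the list were low in untreated podocytes of both genotypes, and Birc3, Cxcl12 and Sod2 had the highest means. Of 25 NF-κB targets, 7 reached 10 TPM, 23 were tested and 0 were called by edgeR, with a median log2 fold change of -0.18. At an unadjusted p under 0.05, 0 were higher and 2 lower, beside 5.60% of all genes in both directions. Birc3, an inhibitor of apoptosis, had 158 and 155 TPM in MyD88pko, against 125, 188 and 249 TPM in PodTOM libraries. Cxcl12, a chemokine that podocytes secrete, had 57.0 and 69.2 TPM in MyD88pko, against 49.3, 91.1 and 76.9 TPM in PodTOM libraries. Ccl2, Ccl7 and Ccl20 were at 0 in all 5 libraries. Il1b was at 0 in both MyD88pko libraries, against 0.968, 0.751 and 1.02 TPM in PodTOM libraries, and Tnf was at 0 in both MyD88pko libraries and AOL_1081, against 0.844 and 0.188 TPM in AOL_1082 and AOL_1086.

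The genes of the podocyte programme had 0 calls. Over 5 lists of slit diaphragm, surface and adhesion, cytoskeleton, transcription factor and basement membrane genes, 116 genes were tested and none was called by edgeR in either direction. At an unadjusted p under 0.05, 2 were higher and 2 lower, beside 5.60% of all genes in both directions. Both MyD88pko libraries lay below all PodTOM libraries for 19 of the 116, beside 8.5% of all genes. They lay above all of them for 11, beside 9.48%. For 103 of the 116 the whole 95% interval of the log2 fold change lay between -1 and 1. The medians of the lists were -0.03, -0.06, -0.03, 0.08 and -0.10 in this order.

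Nphs1, which encodes nephrin, had 1447 and 1427 TPM in MyD88pko, against 1310, 1413 and 1397 TPM in PodTOM libraries (95% interval of the log2 fold change -0.58 to 0.24). Tjp1, which encodes ZO-1, and Cd2ap, an adaptor between nephrin and actin, had means of 1363 and 421 TPM and intervals of -0.40 to 0.34 and -0.31 to 0.37. Kirrel2, a nephrin homologue, was low and had 4.89 and 5.09 TPM in MyD88pko, against 14.0, 10.2 and 17.1 TPM in PodTOM libraries (log2 fold change -0.93, adjusted p = 0.664). Trpc6, the calcium channel at the slit diaphragm, had 4.13 and 5.96 TPM in MyD88pko, against 2.20, 3.61 and 2.78 TPM in PodTOM libraries (0.82, adjusted p = 0.886). Neither passed after adjustment, although the libraries did not overlap.

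Among the transcription factors, Wt1 had 1773 and 1599 TPM in MyD88pko, against 1519, 1410 and 1425 TPM in PodTOM libraries (95% interval -0.28 to 0.48). Lmx1b had 77.7 and 86.3 TPM in MyD88pko, against 82.1, 70.0 and 84.5 TPM in PodTOM libraries (-0.38 to 0.37). Tcf21 had 180 and 239 TPM in MyD88pko, against 151, 153 and 168 TPM in PodTOM libraries (log2 fold change 0.41, adjusted p = 0.877). Of the cytoskeletal genes, Synpo, which encodes synaptopodin, had 1418 and 1465 TPM in MyD88pko, against 1550, 1322 and 1361 TPM in PodTOM libraries (-0.39 to 0.42), and Actn4, an actin cross-linker, had 967 and 1217 TPM in MyD88pko, against 1167, 897 and 863 TPM in PodTOM libraries (-0.34 to 0.58).

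Among the basement membrane genes, Col4a3, Col4a4 and Col4a5, the collagen IV chains that podocytes supply, had means of 1544, 362 and 167 TPM, while Col4a1 and Col4a2 had 3.28 and 2.30 TPM. Lamb2 and Lama5, chains of the adult laminin, had 190 and 105 TPM, and Lamb1 and Lama1 had 5.76 and 7.36 TPM. Col4a3 had 1274 and 1675 TPM in MyD88pko, against 1636, 1597 and 1537 TPM in PodTOM libraries (95% interval -0.37 to 0.34).

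**Figure D5:**
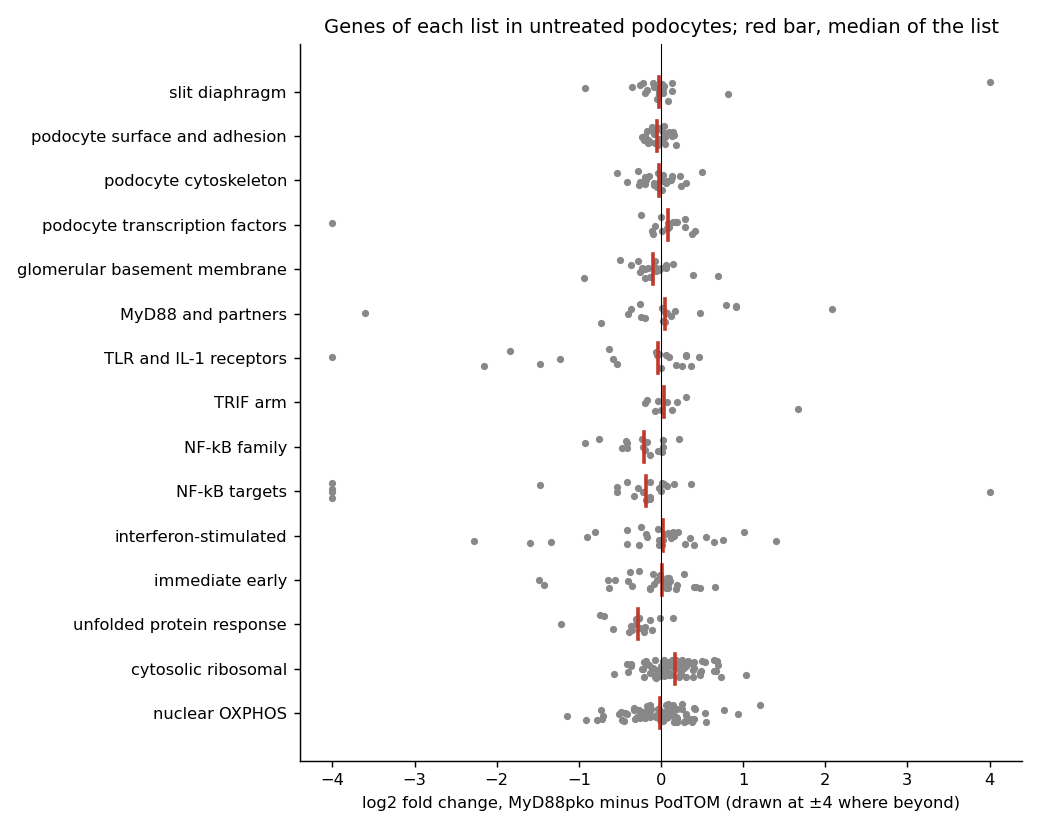
Log2 fold change of MyD88pko minus PodTOM for the tested genes of 15 lists, 1 grey point per gene (drawn at ±4 where beyond) and a red bar at the median of the list. The medians lie between -0.28 for the unfolded protein response and 0.17 for the cytosolic ribosomal genes.

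At the level of single transcripts, 58398 were tested and 0 were called in either direction by edgeR, with 3479 at an unadjusted p under 0.05, whereas DESeq2 called 171 higher and 450 lower. Those with the smallest p in the lower direction were Tacc2-208, Gm15446-201, Cldn1-201, Pttg1-204, Pafah1b1-205 and Stat5a-202. Tacc2-208 had 0 CPM in both MyD88pko libraries, against 45.2, 14.3 and 8.79 CPM in PodTOM libraries (adjusted p = 0.0775). In the higher direction they were Eps15l1-201, Baz2a-202, Zdhhc24-203, Gadd45gip1-201, Gtf3c2-208 and Gigyf2-217. Gigyf2-217 had 11.1 and 20.2 CPM in MyD88pko, against 0 CPM in all 3 PodTOM libraries (adjusted p = 0.258). The counts of Cldn1-201 and Zdhhc24-203 in the untreated libraries equalled those of the whole gene to the nearest count. Where a gene has counts on several transcripts, such values also depend on the division of its reads among them. The estimate carries this division with an error that is not given here.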

How the data were processed

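Podocyte RNA was amplified with the Ovation system, which uses poly(T) and random primers, and the libraries were made with Nextera XT. Adapters were removed with cutadapt and transcripts quantified with kallisto by the authors, whose processing notes name the builds mm10 and GRCm38. The authors deposited estimated counts with the transcript lengths and effective lengths of 109282 transcripts per library. The strand setting is not given in the sources used here.

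Transcripts were matched by identifier to GENCODE M21 (107987 matched; 1295 unmatched, 0.518% to 0.589% of the counts of an untreated library, left out) and summed over 34547 genes. TPM was recomputed from counts and effective lengths. Summed counts were rounded, filtered with filterByExpr (minimum count 10), normalised by TMM and tested by robust quasi-likelihood in edgeR 4.0.16 (R 4.3.3) in 1 fit over all 11 libraries with 4 groups. P-values were adjusted by Benjamini-Hochberg, with a threshold of 0.05. DESeq2 1.42.0 and limma 3.58.1 served as alternatives. Tables and figures used Python 3.11.15 (matplotlib 3.10.9, scipy 1.17.1, pandas 2.3.3 and numpy 2.4.6).

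Genes named are the 30 most abundant, the members at 1 TPM or more of 4 pathway lists, up to 12 called genes per direction with a mean of at least 10 CPM (where none was called, the 8 with the smallest p), and members of further lists. Myd88 and Gm15446 lie under 10 CPM and are named as the targeted gene and, after its values were seen, as the remaining call. The members and lists were chosen with earlier results of these data known. Intervals and p-values include the spread between libraries, but no separate estimate of the error of dividing reads among transcripts. Some genes that these rules select are not reported here.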

Additional observations from a re-analysis of the deposited data

Results flagged for a closer look

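Gm7334, a processed pseudogene on chromosome 17, was the single gene for which the genotype difference in untreated podocytes differed from that in nephritic podocytes by the test of the difference itself (edgeR's quasi-likelihood test, 11.58 on the log2 scale, SE 1.21, adjusted p = 0.00218, 1 of 21200 genes, with 1232 at an unadjusted p under 0.05). It had 10.9 and 8.48 CPM in untreated MyD88pko, against 1.78, 2.38 and 3.96 CPM in untreated PodTOM podocytes, and 0 CPM in all 3 nephritic MyD88pko libraries, against 5.53, 1.62 and 8.63 CPM in nephritic PodTOM podocytes. The untreated difference alone was not called (log2 fold change 1.83, adjusted p = 0.669). With nephritic MyD88pko libraries at 0 the fitted size has no finite value: taking 3 counts over that group as the floor, Gm7334 was at least 130-fold lower in nephritic MyD88pko than in nephritic PodTOM libraries. All of its stretches of 31 bases (100%) also occur in Btg3, which had 30.7 and 25.8 CPM in untreated MyD88pko, against 47.1, 33.7 and 28.2 CPM in untreated PodTOM libraries, so the division of reads between both genes is uncertain. Its part in the result was not tested.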

How the results depend on the processing

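The 4 called genes kept their direction under every alternative that gave a value (13 each, 12 for Myd88), with log2 fold changes of -2.75 to -2.08 for Pttg1, -1.60 to -1.46 for Cldn1, -5.13 to -2.23 for Myd88 and -2.64 to -1.91 for Gm15446. They passed the threshold under 11, 7, 5 and 6 of these. Of the 23 genes for which the alternatives were run, none changed direction. Counts of higher and lower genes were 0 and 4 with the size factors of DESeq2, 12 and 21 with DESeq2, 47 and 90 with no filter (32862 genes), 0 and 3 among genes of at least 5 CPM (Myd88 is not among them), 0 and 0 with the 5 untreated libraries alone (728 genes at an unadjusted p under 0.05), 1 and 2 with limma on log2(TPM + 1), 1 and 5 on log2(TPM + 0.1), and 1 and 1 with length-scaled TPM counts. Leaving out 1 replicate at a time gave 0 to 3 higher and 0 to 7 lower genes: 3 and 4 without BKV_729, 0 and 0 without BKV_733 (776 at an unadjusted p under 0.05), 1 and 7 without AOL_1081, 0 and 2 without AOL_1082 and 0 and 1, Pttg1, without AOL_1086. A lone MyD88pko library is then assumed to vary like the other groups. The causes were not tested. Transcript calls were 171 higher and 450 lower with DESeq2, 0 and 0 with the untreated libraries alone, and 1 to 18 higher and 1 to 85 lower with 1 replicate left out. The order by CPM shared 11 of the 30 most abundant genes. The 6 nephritic libraries fitted alone, an alternative chosen after seeing the data, gave adjusted p of 0.012 for Pttg1, 0.00432 for Myd88 and 0.053 for Gm15446. With both conditions fitted separately no untreated gene was called, so the count of shared directions has no value there. No paired analysis was possible because the labels give no replicate numbers that the groups share. Depth limits the comparison mainly for genes under 10 CPM.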

Other observations

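Among gene groups not described so far, 86 cytosolic ribosomal protein genes were tested and 0 were called by edgeR. At an unadjusted p under 0.05, 9 were higher and 1 lower, beside 5.60% of all genes in both directions. Both MyD88pko libraries lay above all PodTOM libraries for 25 of the 86 (29.1%), beside 9.48% of all genes, and the median log2 fold change was 0.17. AOL_1081 had the lowest summed ribosomal level, 8391 TPM, against 11632 and 10212 TPM in MyD88pko and 10949 and 10401 TPM in the other PodTOM libraries. Its part in the difference was not tested.

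The sum of the unfolded protein response genes was 4778 TPM in BKV_729 and 2980 TPM in BKV_733, against 4396, 4495 and 4970 TPM in PodTOM libraries. Hspa5, the chaperone BiP of the endoplasmic reticulum, had 1362 and 529 CPM in MyD88pko, against 1130, 1137 and 1250 CPM in PodTOM libraries. Of 19 genes tested 0 were called by edgeR, with a median log2 fold change of -0.28. At an unadjusted p under 0.05, 0 were higher and 3 lower, beside 5.60% of all genes in both directions. Both MyD88pko libraries lay below all PodTOM libraries for 6 of the 19 (Xbp1, Pdia6, Sel1l, Sdf2l1, Pdia4 and Manf), beside 8.5% of all genes, and BKV_733 was the lower of both for each of them.

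Of the leukocyte markers, the MHC class II genes H2-Ab1 and Cd74 had 0.230 and 0.229 TPM and 0.115 and 0 TPM in MyD88pko, against 2.56, 5.79 and 19.5 TPM and 3.03, 9.86 and 2.26 TPM in PodTOM libraries (adjusted p = 0.886 and 0.75), while the related H2-Aa overlapped at 7.25 and 0 TPM in MyD88pko, against 5.88, 4.31 and 2.38 TPM in PodTOM libraries. The class II gene H2-Eb1 overlapped as well, at 1.77 and 0.235 TPM in MyD88pko, against 1.13, 3.41 and 0.954 TPM in PodTOM libraries, and the B cell gene Cd79a lay the other way, at 1.03 and 4.46 TPM in MyD88pko, against 0, 0.308 and 0.847 TPM in PodTOM libraries (log2 fold change 2.86, adjusted p = 0.886). Of 20 leukocyte markers tested, 0 were called by edgeR, with 1 higher and 4 lower at an unadjusted p under 0.05, beside 5.60% of all genes in both directions. The median log2 fold change of the list was -0.92, and 2 of the 21 markers reached a mean of 10 TPM. The part of leukocyte RNA in other results was not tested.

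Some of the widest differences between group means were not called, and those of Igha and Gm28439 came from few libraries. Igha, an immunoglobulin heavy chain gene, had 0 CPM in both MyD88pko libraries, against 151, 0 and 0.0629 CPM in PodTOM libraries. Gm28439, a pseudogene whose stretches of 31 bases all (100%) occur in the mitochondrial gene mt-Nd4, had 0 CPM in both MyD88pko libraries, against 0, 408 and 570 CPM in PodTOM libraries. Gm29216, which shares 97.2% of its stretches with mt-Co1, had 34.2 and 58.9 CPM in MyD88pko, against 858, 187 and 187 CPM in PodTOM libraries (log2 fold change -3.14, adjusted p = 0.58). Its libraries did not overlap between genotypes. These genes were chosen after their values were seen.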
